A study of Mus musculus with 16 samples.

Results

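The Hoxa genes are a row of homeobox genes on mouse chromosome 6, and the 10 described here run from Hoxa2 to Hoxa13. They were taken by name from the GENCODE M21 annotation of build mm10, out of 21938 protein-coding genes on chromosomes 1 to 19, X and Y. Each gene was given a territory, made of its body and 1 kb on either side of every annotated start site, and a mark was assigned to a gene where at least 1 bp of a peak fell in its territory. Hematopoietic stem cells (HSCs), which renew the blood throughout life, had been sorted from C57BL/6 mice as IL-7-, CD34-, CD48-, Flt3- and Lin- cells that were also Sca-1+, c-kit+ and CD150+. The mice were either young, at 10 weeks, or aged, at 20 months, and carried no engineered allele or treatment named in the labels. Chromatin carrying H3K4me3, H3K27me3 or H2AK119ub1 was immunoprecipitated and sequenced (ChIP-seq). At either age each mark and the input had 2 libraries, which made 16 libraries in 8 groups. The files hold 1 pooled peak list per mark and age, so each value below comes from a single list, has no replicate error, and differences between the ages were not tested.

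Hox genes encode transcription factors that give cells positional identity along the body axis, and genes at the Hoxa2 end of the cluster are used further forward in the embryo than those at the Hoxa13 end. In blood stem and progenitor cells Hoxa7, Hoxa9 and Hoxa10 are known as active members that support self-renewal, and Hoxa9 acts together with the cofactor Meis1. H3K4me3 (trimethylated lysine 4 of histone H3) marks active promoters, whereas H3K27me3 is deposited by Polycomb repressive complex 2 and H2AK119ub1, a ubiquitin on histone H2A, by Polycomb repressive complex 1.

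The lists differed in size between the ages, and this bears on every value. They held 11371 young and 6723 aged H3K4me3 peaks, 63142 young and 20419 aged H3K27me3 regions, and 2593 young and 17768 aged H2AK119ub1 regions. The length covered genome-wide in the aged list was 0.529, 0.244 and 7.83 times that in the young list for H3K4me3, H3K27me3 and H2AK119ub1. As a check of the cell type, 7 of 10 HSC marker genes had an H3K4me3 peak within 1 kb of a start site at each age, although Gata2 was marked only in the young list and Kit only in the aged list. Of 10 markers of mature lineages, 0 were marked in the aged list, the smaller of the H3K4me3 lists.

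The Hoxa cluster was divided into an unmarked or sparsely marked front part, a middle part with H3K4me3 and a rear part with both Polycomb marks, and this order was seen at both ages. H3K4me3 was found at Hoxa3, Hoxa7, Hoxa9 and Hoxa10 in both lists and also at Hoxa4 in the young list. At Hoxa10 the aged peak lay only in bases shared with the Hoxa9 territory. H3K27me3 and H2AK119ub1 were found together at Hoxa10, Hoxa11 and Hoxa13 at both ages. Hoxa5 and Hoxa6 had no peak in any of the 6 lists.

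**Figure D1:**
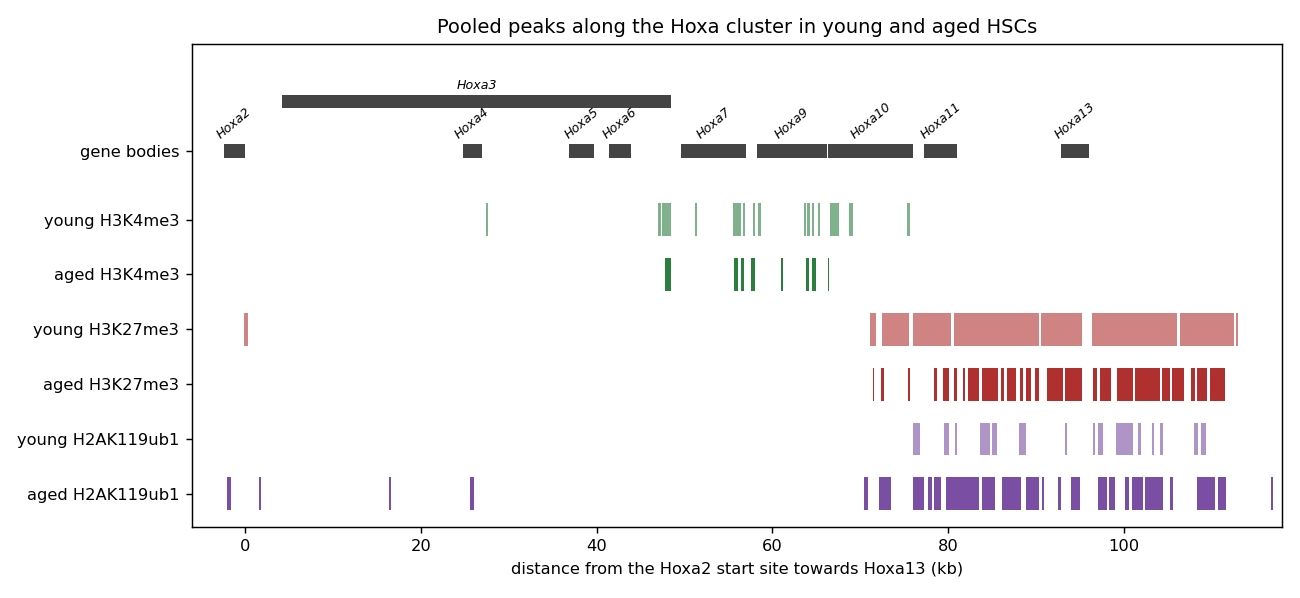
Position of every peak of the 6 pooled lists along the Hoxa cluster, as distance in kb from the Hoxa2 start site towards Hoxa13. Boxes in the top rows are gene bodies, with Hoxa3 drawn above because it contains Hoxa4, Hoxa5 and Hoxa6. H3K4me3 peaks lie mainly between 46.9 and 69.1 kb, and the Polycomb marks mainly from 70.4 to 113.0 kb.

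The following sequences come from genes in these states. They are 250 bases before the RefSeq start of Hoxa5 (without any peak), Hoxa9 (the best known member in HSCs), Hoxa11 and Hoxa13. The Hoxa9 window lay in no peak, and the Hoxa11 window lay fully in young H3K27me3 and aged H2AK119ub1. Only 26 bases of the Hoxa11 window lay in young H2AK119ub1 and 0 in aged H3K27me3. Hoxa13 is a Polycomb-marked gene, but only 9 bases of its window lay in young H3K27me3 and none in the other lists. Bases shared by young and aged H3K4me3 peaks follow. All sequences are from mm10 (promoters as given by RefSeq on GRCm38.p6), on the minus strand on which the genes lie, written 5′ to 3′ with CpG dinucleotides in capitals.
Hoxa5 promoter, chr6:52204588-52204837: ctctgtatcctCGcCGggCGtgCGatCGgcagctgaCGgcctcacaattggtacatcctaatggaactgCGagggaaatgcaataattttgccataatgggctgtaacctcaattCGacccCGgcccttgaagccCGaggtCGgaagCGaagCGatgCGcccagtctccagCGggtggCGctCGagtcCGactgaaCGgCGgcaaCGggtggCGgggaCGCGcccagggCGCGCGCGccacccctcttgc
Hoxa9 promoter, chr6:52227371-52227620: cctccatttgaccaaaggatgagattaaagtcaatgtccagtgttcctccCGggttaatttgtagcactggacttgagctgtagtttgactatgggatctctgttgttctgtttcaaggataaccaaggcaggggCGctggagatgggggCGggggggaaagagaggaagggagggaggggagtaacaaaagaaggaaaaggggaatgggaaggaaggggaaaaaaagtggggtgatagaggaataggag
Hoxa11 promoter, chr6:52245811-52246060: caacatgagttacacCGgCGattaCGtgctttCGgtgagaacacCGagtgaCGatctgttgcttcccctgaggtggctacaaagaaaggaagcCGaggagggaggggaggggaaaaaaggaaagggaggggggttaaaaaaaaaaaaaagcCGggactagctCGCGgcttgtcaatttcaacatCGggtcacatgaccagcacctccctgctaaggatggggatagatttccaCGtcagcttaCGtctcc
Hoxa13 promoter, chr6:52260881-52261130: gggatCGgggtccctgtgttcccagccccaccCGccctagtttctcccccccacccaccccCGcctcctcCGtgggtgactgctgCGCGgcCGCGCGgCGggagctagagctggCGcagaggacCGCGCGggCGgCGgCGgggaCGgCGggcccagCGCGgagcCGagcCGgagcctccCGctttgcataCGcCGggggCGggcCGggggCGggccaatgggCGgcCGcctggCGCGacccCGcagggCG
Hoxa7 bases around the young and aged H3K4me3 summits, chr6:52220511-52220691: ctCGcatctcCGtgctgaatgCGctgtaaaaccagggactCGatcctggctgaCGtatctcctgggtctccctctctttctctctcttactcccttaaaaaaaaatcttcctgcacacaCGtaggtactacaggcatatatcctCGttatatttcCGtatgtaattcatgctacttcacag
Hoxa9 bases shared by a young and an aged H3K4me3 peak, chr6:52229368-52229587: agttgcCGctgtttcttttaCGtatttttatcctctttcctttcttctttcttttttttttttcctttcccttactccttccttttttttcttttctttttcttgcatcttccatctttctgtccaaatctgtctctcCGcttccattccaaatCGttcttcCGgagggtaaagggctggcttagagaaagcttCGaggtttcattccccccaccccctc

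The unmarked Hoxa5 promoter held 28 CpGs in its 250 bases, against 13 in the Hoxa11 promoter and 3 in the Hoxa9 promoter. The Hoxa13 promoter held 35 CpGs at 80.0% G and C. The 181 bases around the Hoxa7 summits held 8 CpGs and the 220 shared bases at Hoxa9 held 6. Both of these stretches lie inside the gene bodies, away from the start sites of the coding transcripts Hoxa7-201 and Hoxa9-201. RefSeq promoters of 300 bases were matched for 9 of the 10 members, all but Hoxa4, and the 10 promoters found (a pair of them for Hoxa10) had a median of 17.5 CpGs, from 4 at Hoxa9 to 45 at Hoxa13, beside a median of 7 over 32851 promoters. CpG content and peaks did not run in parallel along these promoters. The Hoxa5 and Hoxa6 promoters, with 29 and 26 CpGs in 300 bases, were above 87.1% and 83.1% of promoters and carried no peak, whereas none of the 300 bases of the Hoxa9 promoter and of the RefSeq Hoxa7 promoter (9 CpGs) lay in a peak either. Of the 10 promoter windows, the distal Hoxa3 promoter was the only one with H3K4me3 bases, 230 in young and 249 in aged HSCs.

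The active mark was considered first. H3K4me3 overlapped 5 of the 10 members in the young list, where it overlapped 36.7% of all protein-coding genes, and 4 of 10 in the aged list, where it overlapped 25.7%. The 10 territories, which span chr6:52162417-52261880 and hold 84701 bp once shared bases are counted once, carried 16 young peaks over 6182 bp (7.30%) and 8 aged peaks over 3108 bp (3.67%). The aged covered length was thus 0.503 times the young one, close to the 0.529 of the whole lists. All 5 members with H3K4me3 had less covered length in the aged list, as did 71.6% of the genes with an H3K4me3 peak at either age. When both lists were held to 6723 peaks, ranked by the −log10 q-value (the significance given by the peak caller), the young peaks covered 3279 bp and the aged peaks 3108 bp. The young list then kept Hoxa7, Hoxa9 and Hoxa10 and no peak at Hoxa3 or Hoxa4.

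Hoxa7 and Hoxa9 were the members most covered by H3K4me3 in both lists. Hoxa7 was covered over 19.1% of its territory in the young list and 14.9% in the aged list, with 4 and 3 peaks. Hoxa9, which encodes a homeodomain factor central to HSC expansion and to leukemia, was covered over 22.8% and 13.0%, with 6 and 4 peaks. These shares were above those of 99.5% (Hoxa7) and 99.7% (Hoxa9) of all protein-coding genes in the young list, and above 99.7% and 99.6% in the aged list. At equal list sizes the young shares were 16.5% for Hoxa7 and 17.9% for Hoxa9.

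**Figure D2:**
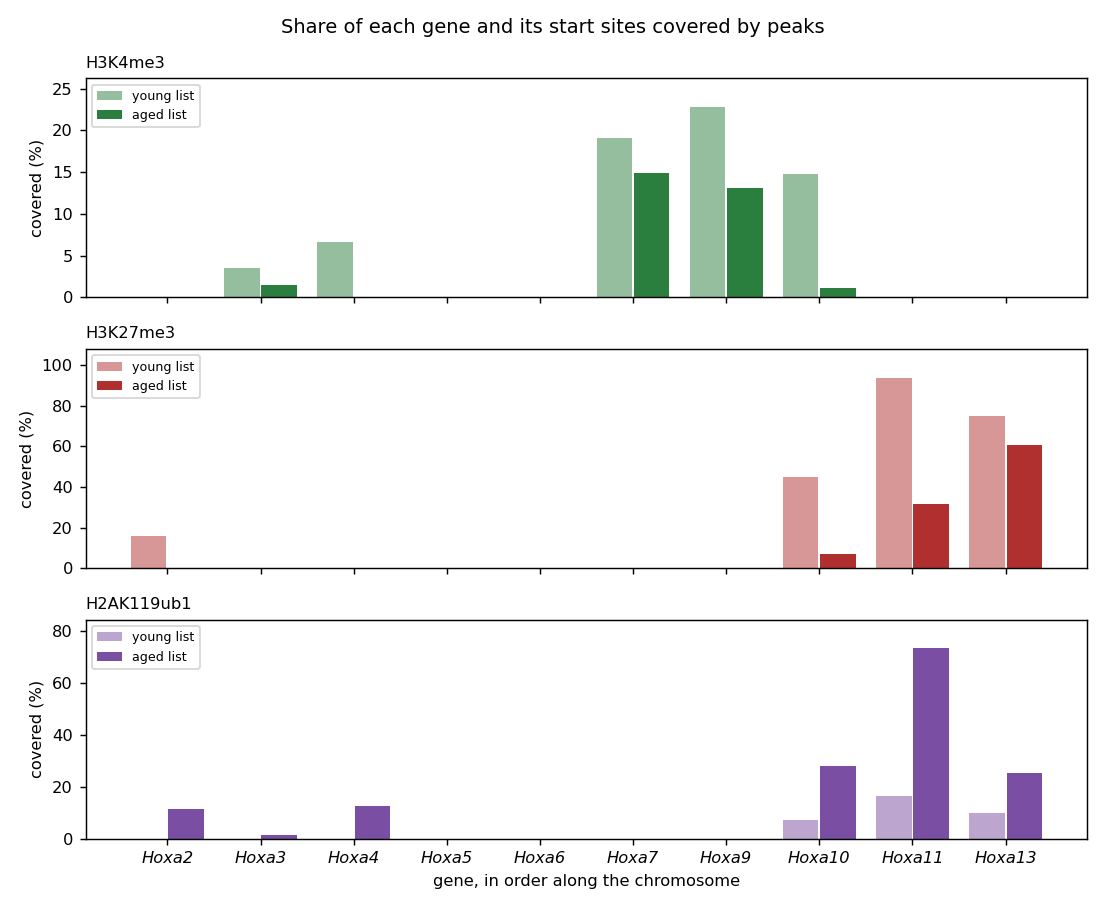
Percentage of each member's territory (gene body and 1 kb around its start sites) covered by peaks of the young list (pale bars) and the aged list (dark bars), for each mark, with genes in chromosomal order. H3K4me3 is highest at Hoxa7 and Hoxa9, both Polycomb marks are highest from Hoxa10 to Hoxa13, and Hoxa5 and Hoxa6 have no bar.

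Hoxa10 was the member whose H3K4me3 share differed most between the lists in percentage points. In the young list, 4 peaks covered 14.8% of its territory, and in the aged list 1 peak at chr6:52231117-52231316 covered 1.13%, of which all bases belong to the 893 bp that the territories of Hoxa9 and Hoxa10 share. The widest of the young peaks, chr6:52231429-52232124 (696 bp), also lay mostly in these shared bases, while the other young peaks lay outside them. At equal list sizes the young share was 8.96%. Hoxa3, a factor of the pharyngeal arches, was covered over 3.56% (3 peaks) and 1.51% (1 peak). Hoxa4 carried a single young peak of 206 bp, chr6:52192247-52192452, centred 547 bp upstream of its start site, and no aged peak.

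Few annotated start sites lay inside an H3K4me3 peak, in the cluster as among all protein-coding genes. The members have 27 annotated start sites, of which 2 lay inside a young and 1 inside an aged H3K4me3 peak (7.41% and 3.70%, beside 4.95% and 3.03% of the 93513 start sites of all protein-coding genes). Within 1 kb of a peak were 12 in young and 8 in aged HSCs (44.4% and 29.6%, beside 29.1% and 20.0% of all start sites). The start site held by a peak at both ages was that of the long Hoxa3 transcript (Hoxa3-201, chr6:52213115), whose young and aged summits lay 48 and 9 bp away. The other, held in the young list, was that of Hoxa7-205, a transcript annotated for nonsense-mediated decay.

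The start sites of the coding transcripts Hoxa9-201, Hoxa7-201 and Hoxa7-202 had no H3K4me3 peak over them. The start of Hoxa9-201, chr6:52227370, was 1055 bp from the nearest young peak and 1248 bp from the nearest aged one. The start of Hoxa7-201, chr6:52217505, was 1267 bp from a young and 3006 bp from an aged peak. For Hoxa7-202, chr6:52218711, which starts within the RefSeq Hoxa7 promoter window, these distances were 1672 and 1800 bp. In Hoxa7, peaks lay around the far upstream starts at chr6:52220383-52221302 and chr6:52221481-52221685 in the young list, and at chr6:52220511-52220926 and chr6:52221209-52221635 in the aged list. Upstream of all Hoxa7 starts, a young peak at chr6:52222584-52222835 overlapped an aged one at chr6:52222448-52222875. A further young peak, chr6:52216016-52216238, lay over coding and untranslated sequence downstream of all Hoxa7 starts and had no aged counterpart. In Hoxa9, 4 of the 6 young and 2 of the 4 aged peaks lay over exons of noncoding transcripts upstream of Hoxa9-201, and 1 aged peak, chr6:52225790-52225991, lay in coding sequence 198 bp from the start of Hoxa9-202, with no young peak there.

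**Figure D3:**
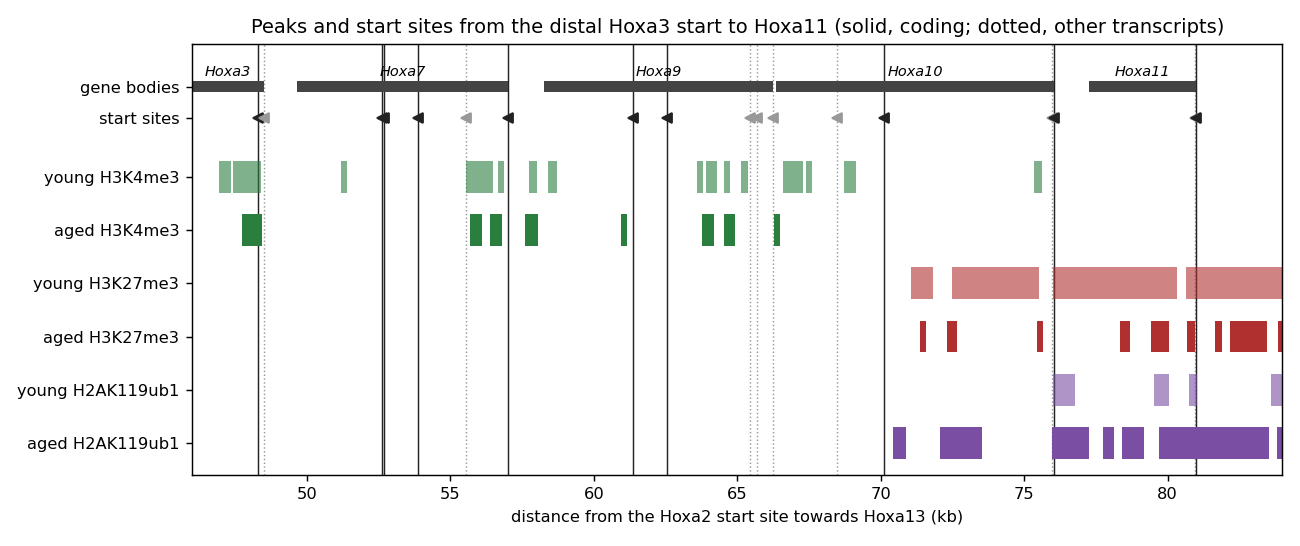
Peaks of the 6 lists from the distal Hoxa3 start to Hoxa11, with annotated start sites (arrowheads and vertical lines, solid for coding and dotted for other transcripts), against distance in kb from the Hoxa2 start site. H3K4me3 peaks sit mostly between the start sites, while the coding start of Hoxa10-201 and that of Hoxa11 lie in Polycomb regions.

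The microRNA gene Mir196b lies in the upstream, noncoding part of the annotated Hoxa9 gene, and its products are known to target Hox transcripts. The young H3K4me3 peak chr6:52229965-52230199 covered all 85 bases of its hairpin, and no aged peak did. Its mature products, as given by RefSeq, are shown with the seed (bases 2 to 8) in capitals.
mmu-miR-196b-5p, chr6:52230129-52230150: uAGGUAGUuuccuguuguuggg
mmu-miR-196b-3p, chr6:52230094-52230115: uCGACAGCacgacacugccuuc
That young peak had a −log10 q-value of 1.56, above those of only 0.396% of the young list. Within 1 kb of the Mir196b start and its body, 2 peaks lay in each list, covering 465 bp in young and 420 bp in aged HSCs.

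The heights of the H3K4me3 peaks were compared next. In the H3K4me3 lists the number of reads over the summit can be recovered from the fold enrichment and the p-value. The 16 young summits carried 15 to 26 reads (median 20.5) over a background of 3.70 to 7.92 reads, and the 8 aged summits 16 to 22 reads (median 18.5) over 3.52 to 4.75. Of the young peaks, 7 overlapped an aged peak, and 6 aged peaks overlapped a young one, in 8 pairs whose summits lay 18 to 774 bp apart. The 95% Poisson intervals of the read numbers overlapped in all 8 pairs, and these intervals cover counting error only. The intervals of the lowest summit (15 reads, 8.40 to 24.7) and of the highest (26 reads, 17.0 to 38.1) overlapped as well. The overlap within pairs therefore cannot show whether the heights were alike at both ages. The 9 young peaks without an aged counterpart carried 15 to 24 reads, and the one with 24 stood over a background of 7.92 (fold enrichment 2.80). Most of these 9 had a −log10 q-value below 4.22, the lowest value kept at equal list sizes. Most of the 7 young peaks with a counterpart lay above it.

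The closest pairs were at Hoxa7, Hoxa9 and Hoxa3, and the other pairs had summits 175, 183 and 774 bp apart at Hoxa7 and 502 bp apart at Hoxa9. The Hoxa7 peaks printed above had summits 18 bp apart, with 23 reads (fold enrichment 5.10) in young and 19 reads (4.42) in aged HSCs. At Hoxa9 the pair printed above had summits 30 bp apart, with 19 reads (4.25) and 20 reads (4.64), and a neighbouring pair had summits 22 bp apart, with 22 reads (4.89) and 16 reads (2.96). At the distal Hoxa3 start the summits were 39 bp apart, with 22 reads at both ages, with fold enrichments of 3.31 (young) and 5.08 (aged) over backgrounds of 5.94 and 3.52 reads. The strongest of the young peaks, at Hoxa7, ranked above 85.8% of the young list and the strongest aged peak, at Hoxa3, above 86.0% of the aged list by q-value.

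**Figure D4:**
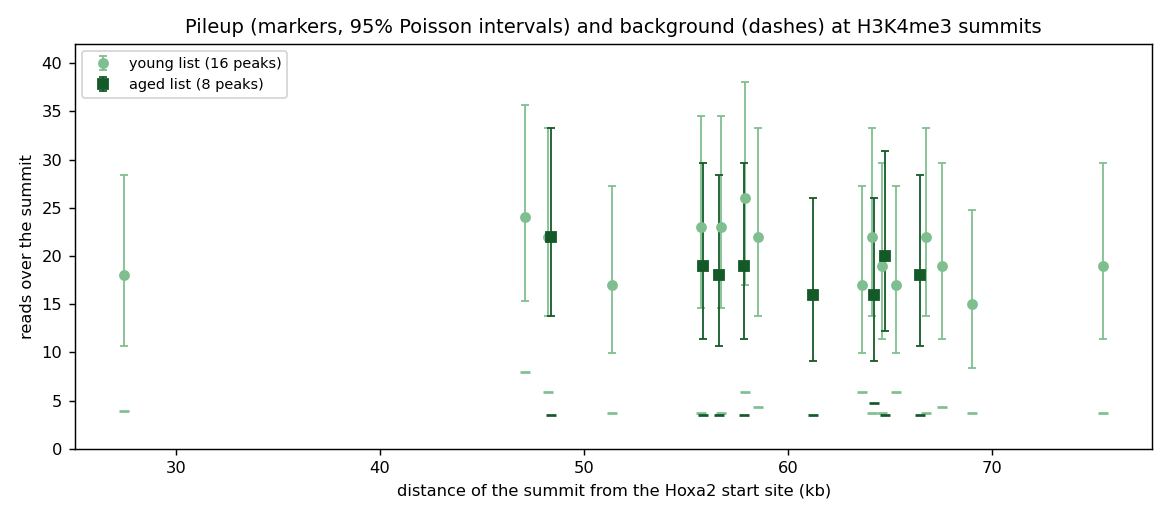
Reads over the summit of each H3K4me3 peak in the member territories (markers, with exact 95% Poisson intervals) and the background at the summit (dashes), against distance in kb from the Hoxa2 start site. All intervals overlap one another, whether or not the peaks do, and 9 of 16 young markers have no aged partner.

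The repressive mark of Polycomb repressive complex 2 was found at the rear of the cluster. H3K27me3 overlapped 4 of 10 members in the young list, where it overlapped 22.2% of all genes, and 3 of 10 in the aged list, where it overlapped 13.3%. It covered 12899 bp (15.2%) in young and 4771 bp (5.63%) in aged HSCs, a ratio of 0.370 beside 0.244 for the whole lists. All 4 members had less covered length in the aged list, as did 95.6% of the genes with H3K27me3 at either age. With both lists held to 20419 regions the young regions covered 11610 bp.

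Hoxa11, which acts in the limb and the female reproductive tract, was almost wholly covered by young H3K27me3. Its share was 93.9% in young and 31.7% in aged HSCs. Hoxa13, the last gene of the cluster and a factor of the digits and the urogenital tract, was covered over 74.9% and 60.5%. Hoxa10 was covered over 45.1% (3 regions) and 6.98% (3 regions). The difference between the lists was therefore smaller at Hoxa13 than at Hoxa11 and Hoxa10. Hoxa2, a hindbrain factor, carried a single young region of 539 bp over its start site, chr6:52164688-52165226, covering 15.8% of its territory, and no aged region. This region was absent when the young list was held to the aged number.

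The young regions were wide and the aged regions were narrow pieces within them. In the member territories the median width was 4334 bp for the 7 young regions and 357 bp for the 10 aged regions, and 93.5% of the aged bases lay in young regions. The young region chr6:52245456-52255108, which starts in Hoxa11, was 9653 bp wide and contained parts of 9 aged regions that covered 64.4% of it. A further one, chr6:52261122-52270840, upstream of Hoxa13, was 80.4% covered by 6 aged regions. In contrast, the 3038 bp region over the Hoxa10 body, chr6:52237321-52240358, was 7.87% covered by 2.

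H2AK119ub1, the mark of Polycomb repressive complex 1, showed the opposite difference between the lists. It overlapped 3 of 10 members in the young list, where it overlapped 4.64% of all genes, and 6 of 10 in the aged list, where it overlapped 23.8%. Its regions covered 1962 bp (2.32%) in young and 8503 bp (10.0%) in aged HSCs. The ratio was 4.33, beside 7.83 for the whole lists. All 6 members had more covered length in the aged list, as did 96.4% of the genes with the mark at either age. With both lists held to 2593 regions, the aged regions covered 5159 bp over 3 members, Hoxa10, Hoxa11 and Hoxa13.

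Hoxa11 was again the most covered member. H2AK119ub1 covered 16.4% of Hoxa11 in young and 73.2% in aged HSCs, 7.31% and 27.9% of Hoxa10, and 9.84% and 25.4% of Hoxa13. At equal list sizes the aged shares were 64.6% for Hoxa11, 25.4% for Hoxa13 and 9.94% for Hoxa10. Among these genes, the share of Hoxa10 thus depended most on the weaker regions. An aged region of 3849 bp, chr6:52244519-52248367, ran over the Hoxa11 start site and was wider than 99.97% of the regions in its list. A second, chr6:52261838-52262860, lay 958 bp upstream of the Hoxa13 start and reached only the first bases of the noncoding gene Hottip. It had a −log10 q-value of 5.51 and was ranked 4 of 17768. In the young list the region 446 bp upstream of the Hoxa13 start, chr6:52261326-52261537, was ranked 16 of 2593.

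The aged list also held short H2AK119ub1 regions in the front part of the cluster, where the young list held none. They were 389 bp in Hoxa2, 244 bp in Hoxa3 and 394 bp in the Hoxa4 coding sequence, the last of these inside the Hoxa3 territory as well. Their −log10 q-values were 1.41, 2.05 and 1.80, and none remained when the aged list was held to the size of the young one. Their appearance and the size of the list cannot be told apart here.

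The 2 Polycomb marks overlapped in part, in genes and in bases. Hoxa10, Hoxa11 and Hoxa13 carried both marks at each age, while Hoxa2 carried H3K27me3 alone in the young lists and Hoxa2, Hoxa3 and Hoxa4 carried H2AK119ub1 without H3K27me3 in the aged lists. Both marks were thus present at 3 members at each age, while 4.02% of all genes had both in the young lists and 9.3% in the aged lists. All of the 1962 bp of young H2AK119ub1 lay inside young H3K27me3. Of the aged marks, 2495 bp were shared, which was 52.3% of the H3K27me3 and 29.3% of the H2AK119ub1 bases. Aged H2AK119ub1 lay largely where young H3K27me3 had been listed, with 6284 bp in common, 73.9% of the former and 48.7% of the latter.

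The outer limits of the rear Polycomb block were similar in 3 of the 4 lists. When regions within 5 kb were joined, young H3K27me3 formed a block from chr6:52235891 to 52277812, inside the Hoxa10 gene at one end and beyond Hoxa13 at the other. Aged H3K27me3 began 322 bp and ended 1495 bp inside these limits. Aged H2AK119ub1 began 617 bp outside the first limit and ended 1377 bp inside the second. Young H2AK119ub1 began 4945 bp and ended 3699 bp inside them. What differed more was how much of the block was filled, from 91.9% in 8 regions for young H3K27me3 to 58.8% in 25 regions for aged H3K27me3. For H2AK119ub1 it was 26.8% in 15 regions in young and 57.3% in 20 regions in aged HSCs.

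The edge between the active and the Polycomb part ran through Hoxa10. Hoxa10 was the single member with both H3K4me3 and H3K27me3 at either age, whereas 5.22% of all genes had both in the young lists and 1.88% in the aged lists. The aged H3K4me3 call rested on 120 bp that Hoxa10 shares with the Hoxa9 territory. It was lost with a minimum overlap of 200 bp or with promoters alone. In the young lists the marks met on the same bases, since the H3K4me3 peak chr6:52240176-52240434, near the long-isoform start, shared 183 bp with H3K27me3. That peak carried 19 reads over a background of 3.70. In the aged lists no H3K4me3 base lay in either Polycomb mark, and 4896 bp separated the last H3K4me3 peak from the first H3K27me3 region of the rear block. An aged H3K27me3 region, chr6:52240293-52240492, lay over part of the young H3K4me3 peak.

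The start sites of Hoxa10 fell on different sides of this edge. The start of the long isoform Hoxa10-201, chr6:52240854, lay inside young H3K27me3, young H2AK119ub1 and aged H2AK119ub1, and was 362 bp from aged H3K27me3. The start of Hoxa10-202, chr6:52234939, which gives a shorter coding transcript, lay in no peak. Its nearest young H3K4me3 peak was 978 bp away and its nearest aged one 3623 bp away, and an aged H2AK119ub1 region lay 335 bp upstream. The Hoxa13 start, by contrast, lay in a gap of the Polycomb block in every list, 242 bp from young H3K27me3, 389 bp from aged H3K27me3 and 446 and 958 bp from young and aged H2AK119ub1.

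The stretch between Hoxa4 and the distal Hoxa3 start, in the front part of the cluster, was bare. The longest stretch without a peak in any of the 6 lists was 19323 bp, chr6:52192453-52211775, and held all of Hoxa5 and Hoxa6, which both lie within the Hoxa3 gene body. Taken over the whole 99464 bp, any mark covered 29.9% in the young lists and 23.6% in the aged lists. Absence of a peak does not show that the mark was absent, because a list holds only what passed the threshold of the caller. Among all protein-coding genes, 37.0% had no peak in any list, as Hoxa5 and Hoxa6, while 0.424% had a peak in all 6, as Hoxa10.

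Noncoding genes inside the cluster were described by the same rule. GENCODE places 13 noncoding genes between the first and the last base of the members. Most of their territories share bases with those of the members, and several are short entries inside Hoxa11os. The counts below therefore largely repeat the same peaks, and the share over all noncoding genes was not computed. H3K4me3 overlapped 2 of them at each age, Hoxaas3, whose transcript runs antisense to Hoxa3 and ends near its distal start, and Mir196b. H3K27me3 overlapped 9 in young and 8 in aged HSCs, and H2AK119ub1 8 in young and 10 in aged HSCs. Hoxa11os, which is antisense to Hoxa11, carried 6120 bp and 3646 bp of young and aged H3K27me3 over a territory of 6407 bp, and 1896 bp and 5603 bp of young and aged H2AK119ub1. Hottip, named after its values were seen, starts beyond Hoxa13 and is known for a role in expression of the rear Hoxa genes. Its territory of 5829 bp was fully covered by young H3K27me3, with 4633 bp in the aged list, and H2AK119ub1 covered 2623 bp and 3668 bp.

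The nearest protein-coding neighbours outside the Hox genes differed between the ends. Skap2, an adaptor protein gene beyond Hoxa2, had 6 young and 1 aged H3K4me3 peaks and no Polycomb region at either age. Evx1, a homeobox gene beyond Hoxa13, had no H3K4me3 peak and carried 5035 bp and 3375 bp of young and aged H3K27me3 and 2186 bp and 4772 bp of young and aged H2AK119ub1 over its 5881 bp.

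The Hoxa genes were compared with the other Hox clusters by the same rule. H3K4me3 covered 7.30% of the Hoxa territories in the young list, against 2.60% of the 10 Hoxb, 0.759% of the 9 Hoxc and 0% of the 9 Hoxd genes. In the aged list it covered 3.67%, 3.03%, 0.402% and 0%. The aged to young ratio of covered length was 0.503 for Hoxa, 1.17 for Hoxb and 0.529 for Hoxc, so the lower aged coverage at Hoxa was not seen at Hoxb. For H3K27me3, Hoxa had the lowest share of the clusters in both lists, 15.2% and 5.63%. Hoxb had 29.3% and 6.30%, Hoxc 95.3% and 43.4%, and Hoxd 90.1% and 51.4%. H2AK119ub1 covered 2.32% and 10.0% of Hoxa and 2.67% and 12.6% of Hoxb, whereas Hoxc had 15.7% and 44.1% and Hoxd 13.0% and 42.1%. With 1 list per age, none of these differences could be tested.

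**Figure D5:**
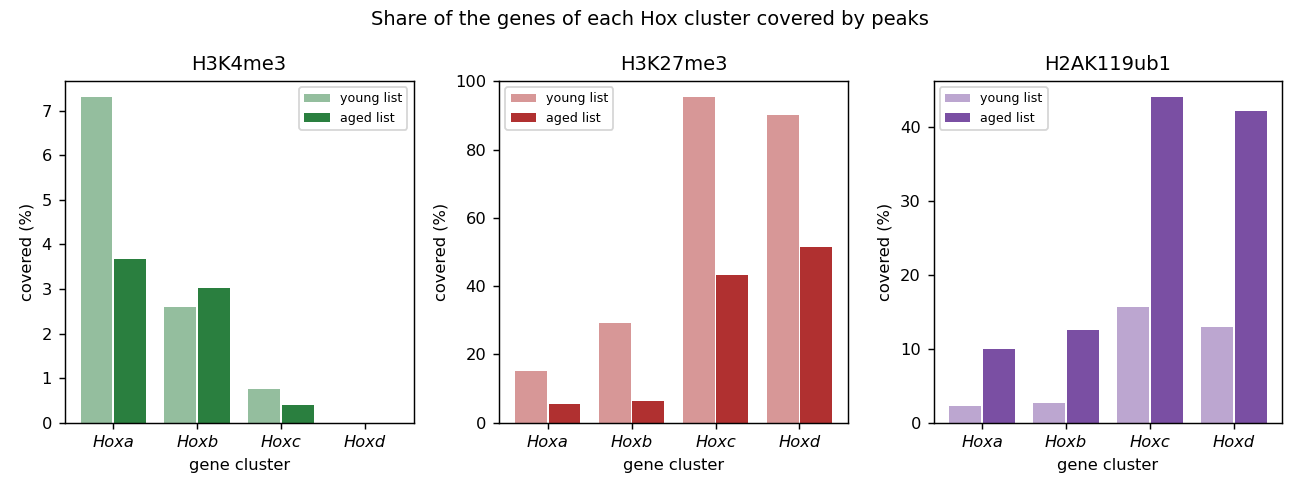
Percentage of the gene territories of each Hox cluster covered by H3K4me3, H3K27me3 and H2AK119ub1 in the young list (pale bars) and the aged list (dark bars), with a separate vertical scale per mark. Hoxa has the highest H3K4me3 bar and the lowest H3K27me3 bar in both lists.

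Genes that work with or upstream of the Hoxa genes were counted in the same way. The list held 24 genes, among them the cofactor Meis1, the H3K4 methyltransferase Kmt2a with its partner Men1, and subunits of the Polycomb complexes. H3K4me3 overlapped 15 of 24 in young and 14 in aged HSCs, beside 36.7% and 25.7% of all protein-coding genes. H3K27me3 overlapped 7 and 6, beside 22.2% and 13.3%, and included the Cdx1, Cdx2 and Cdx4 genes, whose products activate Hox genes, at both ages. H2AK119ub1 overlapped 3 in young and 10 in aged HSCs, beside 4.64% and 23.8%. Meis1 and Pbx3 were among the 10 in the aged list, and both also carried H3K4me3 at either age. Their aged H2AK119ub1 was small, 209 bp of a 140169 bp territory at Meis1 and 303 bp of 202686 bp at Pbx3.

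Across the members the median covered share was 1.78% and 0% for young and aged H3K4me3, 0% for H3K27me3 and 0% for young H2AK119ub1, and 6.40% for aged H2AK119ub1, while the median over all genes was 0% in each list. The genes outside the Hox clusters closest to these 6 medians were Efhd2, Pced1a, Cbfa2t3, Trp53i11 and Cmtm3, with a mean absolute difference of 0.169 to 0.250 percentage points over the 6 lists. Because the members fall into separate groups, these medians describe no single member.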

How the data were processed

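ChIP-seq for 3 histone marks was performed by the authors on young and aged HSCs after micrococcal nuclease digestion and sonication. The labels list Bowtie2, MACS2 2.2.6 and build mm10, and the treatment of duplicates and of the input is not given in the sources used here. The deposited lists give for each peak the fold enrichment (a linear ratio), the −log10 p-value and the −log10 q-value. The narrow H3K4me3 lists also give the summit, and values of the broad H3K27me3 and H2AK119ub1 lists are averages over a region. Peak names show 2 library numbers for H3K4me3 and 1 for the broad marks, and whether both replicates were pooled for the latter is not stated. Sequencing depth was not given.

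Overlaps were computed with Python 3.11.15 (scipy 1.17.1, pandas 2.3.3, numpy 2.4.6), and sequences were read with pysam 0.24.0. Reads at H3K4me3 summits were recovered by solving fold = (reads + 1) / (background + 1) together with the Poisson p-value. The code was tested on simulated data. The members, the gene lists and the alternatives were chosen with earlier results of these data known. Besides the members, named genes were the noncoding genes within the cluster, the nearest neighbour at each end, the 5 most similar genes by covered share, and genes of fixed lists. The lineage markers in the young list are not reported here. No test was run, because no group had replicate values.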

Additional observations from a re-analysis of the deposited data

How the results depend on the processing

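Of 84 values recomputed under the alternatives, 55 stayed within 1.5 times the reported value and 29 did not. Covered length kept the order of the ages in all alternatives tried for it. When peaks below 4 on the −log10 q-value scale were left out, H3K4me3 overlapped 3 young members with 8 peaks over 3279 bp, young H3K27me3 had 3 regions over 6197 bp, aged H3K27me3 and young H2AK119ub1 had 0 members, 0 regions and 0 bp, and aged H2AK119ub1 had 1 member, 1 region and 43 bp, so this threshold leaves almost nothing of the weaker lists. With the same number of peaks for both ages, young H3K4me3 had 3 members, 8 peaks and 3279 bp, and aged H2AK119ub1 had 3 members, 5 regions and 5159 bp. Under both of these settings H3K4me3 had 3 young against 4 aged members, the reverse of the reported order. At equal numbers the members tied at 3 for both Polycomb marks, and the peaks tied at 8 for H3K4me3 and at 5 for H2AK119ub1. With promoters alone, young H3K27me3 covered 4927 bp, aged H3K27me3 had 6 regions over 1506 bp, and aged H2AK119ub1 had 6 regions over 3692 bp. The order of the numbers of H3K27me3 regions was then 7 young and 6 aged, the reverse of that reported, as it was with the stricter q-value. Joining peaks within 1 kb gave 8 young and 5 aged H3K4me3 peaks and 3 young and 4 aged H3K27me3 regions. A wider flank of 2.5 kb, a minimum overlap of 200 bp and coding transcripts alone moved none of the values by over 1.5 times. With the minimum overlap of 200 bp, and with promoters alone, aged H3K4me3 overlapped 3 members in place of 4, without Hoxa10.

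No paired analysis was possible because the replicates of a group come as 1 pooled list. Peak lists cannot separate a difference between animals or libraries from a difference in age, and the recovered 15 to 26 reads per H3K4me3 summit limit what each peak can show.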
